A study of Gallus gallus with 6 samples.

Results

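The 9 genes described here mark B lymphocytes or serve them, and all 9 were found on a chicken oligonucleotide array hybridised with blood leukocyte RNA. They are LOC396098 (Bu-1), CD79B, IGLL1, POU2AF1, PAX5, EBF1, BCL11A, CD72 and TNFRSF13B. Members were taken by name, through probes whose RefSeq accession maps to one of these symbols in a RefSeq gene table, which gave 28 of the array's 43603 probes and 9 of the 5382 genes that could be named. The study compared females with males, 3 samples labelled female and 3 labelled male, each from chickens aged 1 to 2 months and each hybridised once with Cy3-labelled RNA. Blood came from the wing vein, and the cells were those at the interface of a Ficoll-Paque gradient. No breed, genotype or treatment is stated in the labels of these samples, although the series title speaks of transgenic and other chickens. The labels do not say whether each sample came from a separate bird, so the p-values measure only the spread between these samples, which may be technical.

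B cells are the antibody-producing lymphocytes. In birds they develop in the bursa of Fabricius, where the single functional light chain gene is diversified by gene conversion. EBF1 and PAX5 are transcription factors that, as known from the mouse, commit lymphoid precursors to the B lineage and hold them there. CD79B is a signalling chain of the B cell antigen receptor, and Bu-1 is the surface antigen by which chicken B cells are usually stained.

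Before the results, 2 of the 6 libraries went against their sex labels. HINTW, a gene of the female-specific W chromosome, read 6.61, 6.47 and 4.65 in the female-labelled libraries (replicates 1, 2 and 3, the order of all values below) and 4.58, 4.48 and 6.99 in the male-labelled ones (log2 signal relative to the array's 75th percentile, the scale of every level below). For HINTW, female 3 therefore grouped with male 1 and male 2, and male 3 with female 1 and female 2. The median of the Z chromosome genes, given below, split the libraries in the same way. Groups were kept as labelled, and tests between the labelled sexes are given with and without this pair. Each labelled sex filled 1 slide of its own, and a difference between slides cannot be told apart from one between labels. Between 79.0% and 83.1% of spots were well above background on an array. All 28 probes of the 9 genes were well above background on all 6 arrays, so each gene passed the filter on dim probes in every library. Precision is limited by there being 3 arrays for each label.

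All 9 genes were lowest in the library labelled female 1, against 19.9% of the 29509 features tested. Their mean deviation from each gene's own 6-library mean was -0.56 log2 in that library and -0.12 in the library labelled female 2. It was 0.14 in the library labelled female 3, and 0.18, 0.33 and 0.03 in the male-labelled ones. The libraries where HINTW was low, those labelled female 3, male 1 and male 2, thus had the highest mean deviations. By the median deviation this order did not hold, with 0.09 in the library labelled male 1 and 0.10 in that labelled male 3. TNFRSF13B alone lay at 1.07 in the library labelled male 1 and at -0.53 in that labelled male 3. On their brightest probes LOC396098, CD72 and TNFRSF13B were each higher in all of the libraries with low HINTW than in any other, while the remaining members overlapped. Other probes differed: the third LOC396098 probe and the second TNFRSF13B probe overlapped, while the second probes of CD79B and POU2AF1 did not. The share of all features that split in this way was not counted, so nothing about these genes is concluded from it. CD72 lies on the Z chromosome, whose median split the libraries in the same way. The highest library was that labelled male 2 for 5 of the 9 genes, against 13.8% of all features. As all 9 were lowest in the library labelled female 1, none could be highest there, where 23.4% of all features were. In the library labelled female 2, 8 of 9 genes were below their own mean, against 46.83% of all features. In those labelled female 3 and male 2, 1 of 9 was below it, against 53.18% and 51.65% of all features. In bulk samples, fewer B cells and less RNA per B cell cannot be told apart, and other sources of the low values were not tested.

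**Figure D1:**
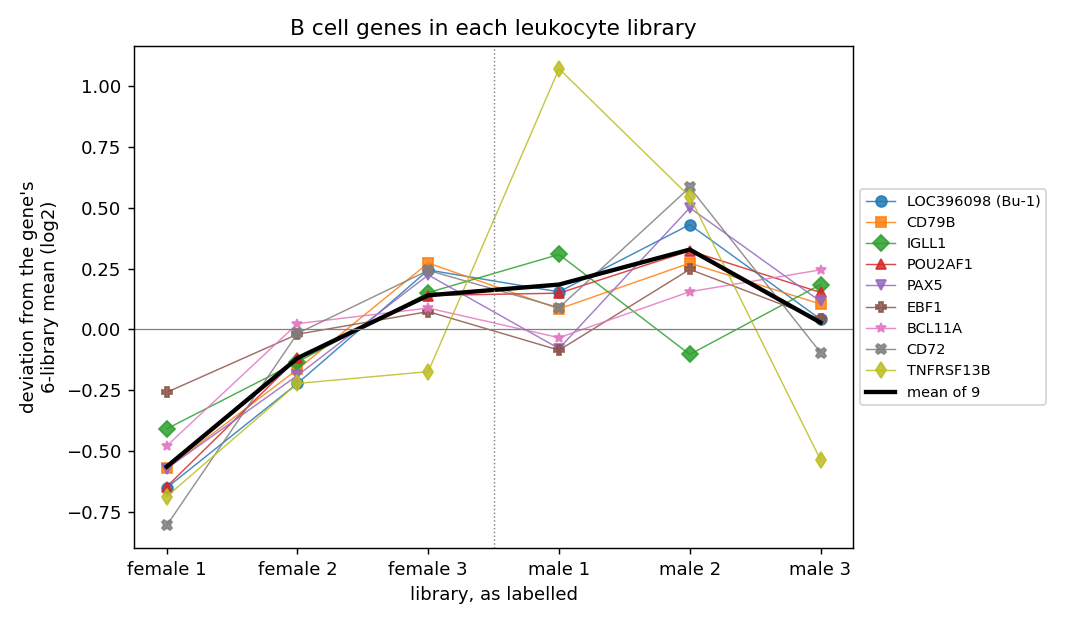
The x axis gives the 6 libraries as labelled and the y axis the deviation of each gene from its own 6-library mean (log2), from the brightest probe of each gene. Thin lines join the values of 1 gene and have no meaning as a course, and the black line is the mean of the 9 genes. All 9 genes lie below 0 in the library labelled female 1, and TNFRSF13B alone exceeds 1 log2, in that labelled male 1.

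Among surface molecules, LOC396098 (Bu-1) read 2.69, 3.12 and 3.58 in the female-labelled libraries and 3.50, 3.77 and 3.38 in the male-labelled ones. The brightest of its 3 probes had an intensity between 6258 and 12366, a 2.11-fold range, and the groups overlapped through the library labelled female 3. CD79B, which pairs with CD79A to carry the signal of surface immunoglobulin, read 5.39, 5.80 and 6.24 in the female-labelled and 6.05, 6.24 and 6.07 in the male-labelled libraries. The intensity on its brightest probe was 40726 to 68276. The library labelled female 3 was level with that labelled male 2, the highest male-labelled one, and the other 2 female-labelled libraries lay below all those labelled male.

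CD72, a C-type lectin on B cells that dampens receptor signalling in the mouse, read 0.72, 1.51 and 1.77 in the female-labelled libraries and 1.62, 2.11 and 1.43 in the male-labelled ones. Its brightest probe was printed on 5 spots of each array. CD72 spanned 2.62-fold over the libraries, and the groups overlapped. TNFRSF13B is TACI, a receptor that binds the B cell survival ligands BAFF and APRIL in the mouse. It read -4.14, -3.68 and -3.63 in the female-labelled and -2.39, -2.91 and -3.99 in the male-labelled libraries. It was dim, with an intensity between 54.9 and 173. The libraries labelled male 1 and 2 were above all others, while that labelled male 3 lay within the female-labelled range.

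IGLL1 is the table's symbol for a gene with the synonyms IgL and IGLV, names of the immunoglobulin light chain. The sources used here do not say which segments of that locus each probe reads, so its values may combine several light chain transcripts. Its brightest probe read 6.45, 6.72 and 7.004 in the female-labelled libraries and 7.16, 6.75 and 7.04 in the male-labelled ones. The library labelled male 1 was highest on all 6 IGLL1 probes, and that labelled male 2 lay among the female-labelled ones. The 6 probes spanned 0.72 to 0.94 log2 over the libraries and ran closely together, with pairwise Pearson r of 0.98 or more.

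Among the transcriptional regulators, POU2AF1, the coactivator OBF-1 that works with octamer-binding factors on immunoglobulin genes, read 1.75, 2.28 and 2.54 in the female-labelled and 2.55, 2.72 and 2.55 in the male-labelled libraries. With each gene taken by its brightest probe, it was the only member whose groups did not overlap, by a gap of only 0.0096 log2. Groups were also apart on the third probes of LOC396098, BCL11A and POU2AF1 and on the second EBF1 probe. They overlapped on the second POU2AF1 probe. Among all features 3.84% had every male-labelled library above every female-labelled one, and the POU2AF1 groups overlapped after median scaling and with the deposited matrix values. PAX5, with a single probe at an intensity of 59.65 to 117, read -4.02, -3.64 and -3.23 in the female-labelled libraries and -3.53, -2.95 and -3.34 in the male-labelled ones. Its groups overlapped, and it spanned 1.07 log2.

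EBF1 varied least of the 9 genes when each was taken by its brightest probe. It read -1.53, -1.29 and -1.20 in the female-labelled and -1.36, -1.03 and -1.23 in the male-labelled libraries, a 1.42-fold range, and the groups overlapped. BCL11A, a zinc-finger repressor needed for early B cell development in the mouse and also active in other blood lineages, read 2.07, 2.58 and 2.64 in the female-labelled libraries and 2.52, 2.71 and 2.80 in the male-labelled ones. All 7 of its probes were highest in the library labelled male 3, and 2 male-labelled libraries lay above the female-labelled range. The standard deviation over the 6 libraries was 0.17 log2 for EBF1 (0.23 on its second probe) and 0.25 for BCL11A, against a median of 0.26 over all features. At the other end it was 0.46 for CD72 and 0.67 for TNFRSF13B, above 80.7% and 91.8% of all features.

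**Figure D2:**
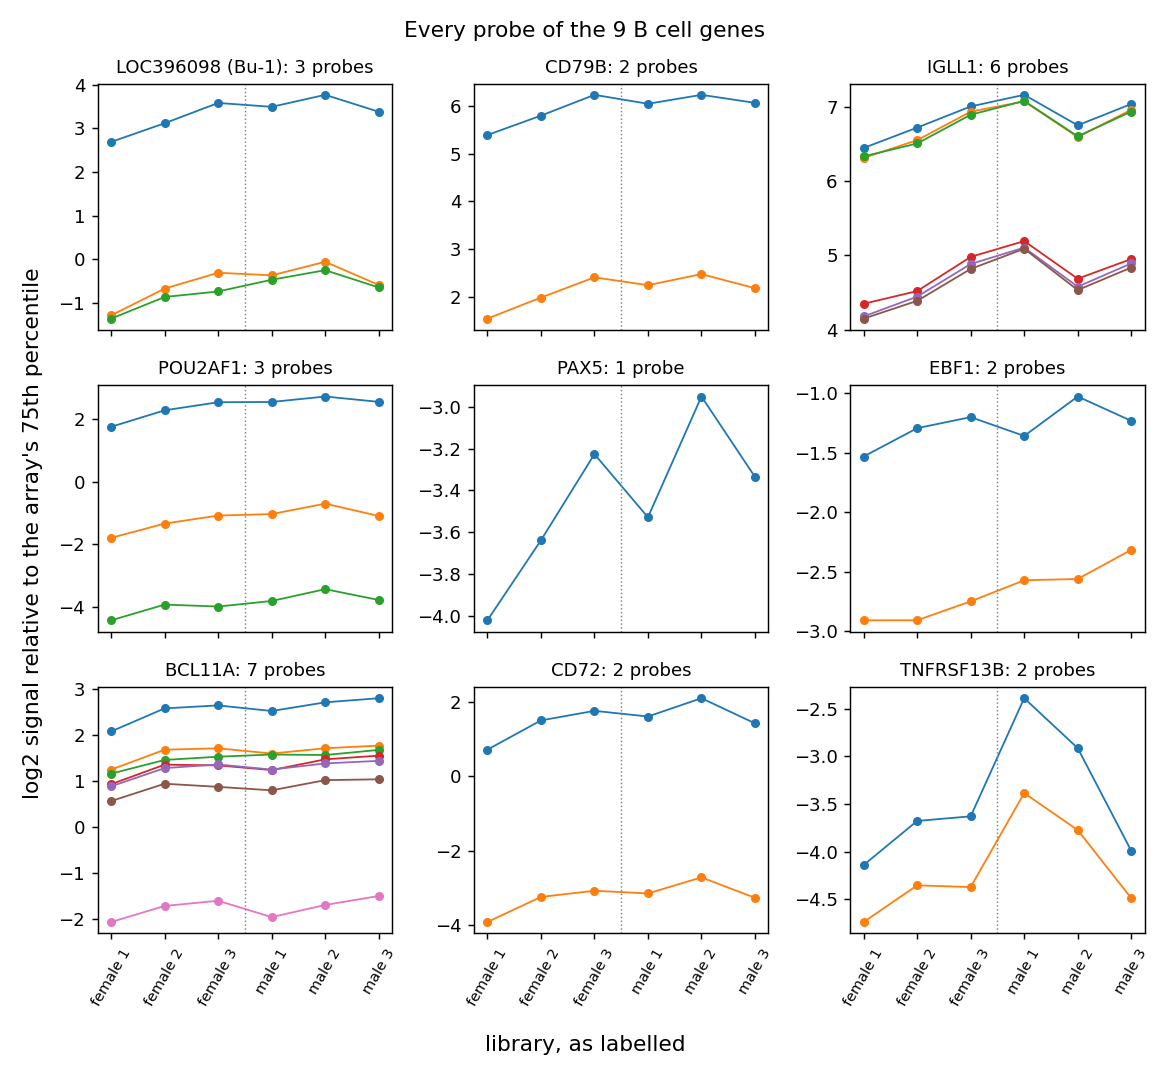
Each panel shows 1 gene, each line 1 probe; the x axis gives the libraries as labelled and the y axis the log2 signal relative to the array's 75th percentile, with a scale of its own per panel. All 28 probes are lowest in the library labelled female 1, the second EBF1 probe only barely. The 2 EBF1 probes, with Pearson r of 0.48, run least alike.

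Probes of a gene share their transcript and are not replicates, but they show how far a value rests on 1 spot. All 28 probes were lowest in the library labelled female 1, against 20.8% of all kept probes. The second EBF1 probe was so only barely, at -2.9100 against -2.9095 in the library labelled female 2. Of the 28, 11 were highest in the library labelled male 2, 8 in that labelled male 1 and 8 in that labelled male 3. For LOC396098, CD79B, POU2AF1, CD72 and TNFRSF13B the pairwise Pearson r between probes over the 6 libraries was 0.91 or more. The 7 BCL11A probes reached down to 0.74. The 2 EBF1 probes disagreed more, with r of 0.48: the second read -2.91, -2.91 and -2.75 in the female-labelled and -2.57, -2.56 and -2.32 in the male-labelled libraries, where the groups did not overlap.

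The 9 genes varied together over the libraries, but much of this rested on 1 of them. Over all 6 libraries the 36 pairs of members had a median Pearson r of 0.85, from 0.26 to 0.98, and a median Spearman rho of 0.71. Over all pairs of the 4859 named genes measured the median Pearson r was 0.02, and 1.81% of those pairs exceeded 0.9, as did 13 of the 36. These values are descriptions over 6 points, without a test, and all genes of a library share its array and its mix of cells. Without the library labelled female 1 the median of the 36 pairs was 0.46, and 3 exceeded 0.9. Over all pairs of named genes the median was then 0.01, and 2.74% exceeded 0.9. Without the 2 libraries farthest from the median, those labelled female 1 and male 2, the members' median was 0.38. There 3 of the 36 exceeded 0.9, against 6.16% of all pairs. Without those labelled female 3 and male 3 the members' median was 0.88. Then 16 of the 36 exceeded 0.9, against 7.65% of all pairs.

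What stayed close without the library labelled female 1 was LOC396098 with POU2AF1 (Pearson r 0.95), LOC396098 with CD79B (0.94) and the lineage factors PAX5 with EBF1 (0.93). These were picked as the highest of the 36 pairs, over 5 libraries, where 2.74% of all pairs of named genes exceeded 0.9. The value for PAX5 with EBF1 rests on the brightest EBF1 probe, which ran with the second at r of only 0.48 over all 6 libraries. The second EBF1 probe was highest in the library labelled male 3, and PAX5 in that labelled male 2. PAX5 also stayed near LOC396098 (0.88), CD79B (0.87) and POU2AF1 (0.86). CD72 stood at 0.84 with LOC396098 and 0.83 with PAX5. IGLL1 and BCL11A did not stay close: against the mean of the other 8 genes their r was 0.66 and 0.80 over all 6 libraries, and 0.02 and 0.03 without the library labelled female 1. TNFRSF13B had the lowest such r over all 6 libraries, 0.55, and stood at 0.27 without the library labelled female 1, where EBF1 stood at 0.54.

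**Figure D3:**
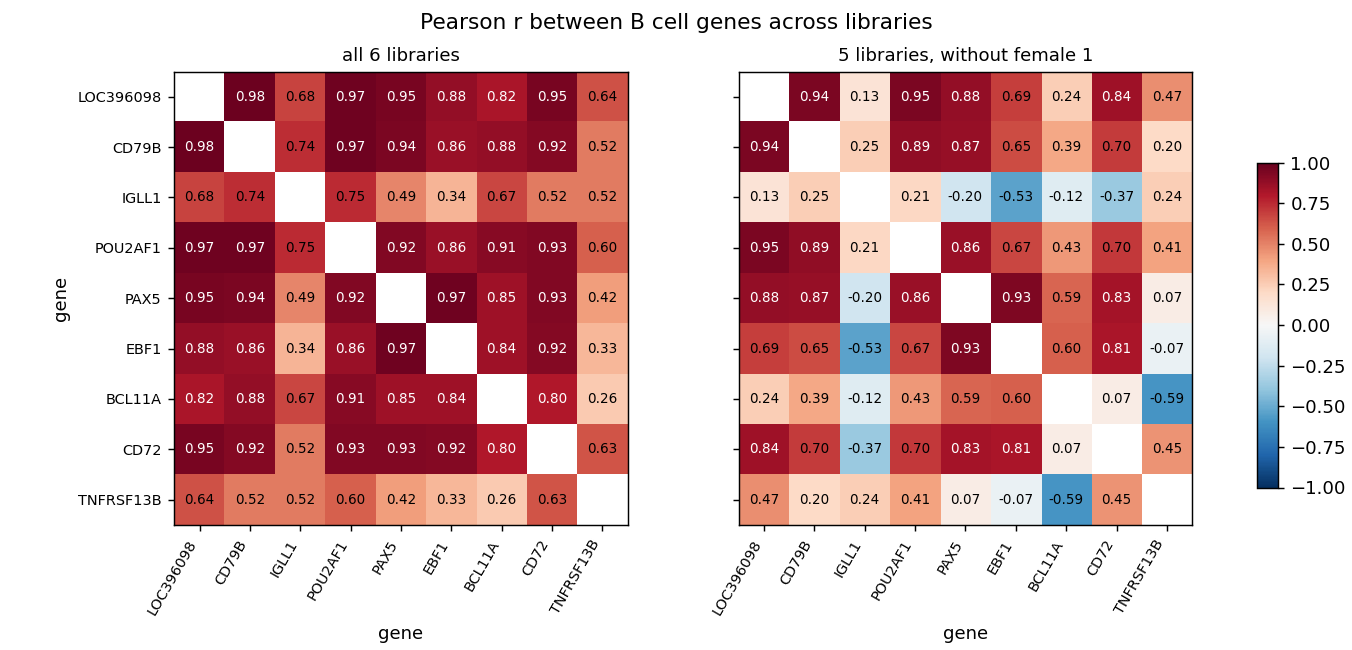
Both axes list the 9 genes, each taken by its brightest probe. Each cell gives the Pearson r of a pair across libraries, with all 6 on the left and without the library labelled female 1 on the right. LOC396098, CD79B, POU2AF1, PAX5, EBF1 and CD72 stay between 0.65 and 0.95 with each other on the right, while IGLL1 ranges from -0.53 to 0.25.

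IGLL1 and TNFRSF13B departed most from the others. Relative to the mean deviation of the other 8 genes, IGLL1 was 0.48 log2 lower in the library labelled male 2 (-0.48). TNFRSF13B was 1.00 log2 higher in that labelled male 1 and at -0.63 in that labelled male 3. The departures of LOC396098, CD79B and POU2AF1 stayed within 0.15 log2 in every library. JCHAIN, the joining chain of secreted antibody and a plasma cell marker, read -1.40, -0.86 and -0.96 in the female-labelled libraries and -0.11, -2.46 and -0.76 in the male-labelled ones. JCHAIN was highest in the library labelled male 1, as IGLL1 was, and lowest in that labelled male 2. The other 3 plasma cell markers measured differed: XBP1 was highest in the library labelled male 1 and TXNDC5 and DERL3 in that labelled female 3, and lowest were those labelled female 1, male 2 and female 2, in this order.

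PAX5 and CD72 lie on the Z chromosome, of which male birds carry a pair and females a single copy. Measured as the median deviation of the Z genes minus the autosomal median, the Z chromosome stood at -0.28, -0.26 and 0.28 log2 in the female-labelled libraries and at 0.27, 0.26 and -0.26 in the male-labelled ones. With this value taken off, PAX5 read -3.75, -3.38 and -3.51 in the female-labelled and -3.80, -3.21 and -3.07 in the male-labelled libraries, so that the library labelled female 1 was no longer its lowest. CD72 then read 1.00, 1.77 and 1.48 in the female-labelled and 1.34, 1.85 and 1.70 in the male-labelled libraries, where that labelled female 1 stayed lowest. The male minus female difference of PAX5 went from 0.36 to 0.18 log2, and that of CD72 from 0.39 to 0.21. Without the libraries labelled female 3 and male 3 it went from 0.59 to 0.06 for PAX5 and from 0.75 to 0.21 for CD72.

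CD72L1, which is no member, is a neighbour of CD72 on Z and is listed with CD72 among its synonyms. Its brightest probe read 0.27, 0.57 and 1.74 in the female-labelled libraries and 1.79, 2.20 and 1.08 in the male-labelled ones. CD72L1 was thus high in the 3 libraries where HINTW was low, more so than CD72. How far the probes of this gene and of CD72 read each other's transcript was not tested.

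Between the labelled sexes, each of the 9 had its higher mean among the male-labelled libraries, as did 47.4% of all features, and none passed the test. With limma and Benjamini-Hochberg adjustment over all 29509 features, 0 of 9 had an adjusted p under 0.05, against 0% of all features, and each had an adjusted p of 0.948. At an unadjusted p under 0.05 there were 0 of 9, against 3.81% of all features. The members' median difference was 0.36 log2, against -0.01 over all features. It was 0.31 for the 7 autosomal members. It was 0.12 without the library labelled female 1, where all 9 were still higher, and was 0.56 without that labelled female 3.

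TNFRSF13B had the widest difference, 0.72 log2 (SE 0.41), with means of -3.82 ± 0.28 and -3.10 ± 0.82 (SD, n = 3 each) in the female-labelled and male-labelled libraries. The TNFRSF13B difference was 0.36 log2 without the library labelled male 1, 1.17 without that labelled male 3 and 0.48 with normexp background correction. The other 8 genes had their smallest difference without that labelled female 1, down to 0.04 for EBF1. LOC396098 differed by 0.42 log2 (SE 0.25), from 3.13 ± 0.45 to 3.55 ± 0.20 (SD, n = 3 each). POU2AF1 also differed by 0.42 log2 (SE 0.22), from 2.19 ± 0.40 to 2.60 ± 0.10 (SD, n = 3 each). CD72 differed by 0.39 (SE 0.32), PAX5 by 0.36 (SE 0.25) and CD79B by 0.31 log2 (SE 0.23). IGLL1, BCL11A and EBF1 differed by 0.26 (SE 0.20), 0.24 (SE 0.19) and 0.14 log2 (SE 0.16). Every one of these differences, each on the gene's brightest probe, lies within 2 standard errors of 0. Some other probes lay farther out, among them the second EBF1 probe at 0.37 log2 (SE 0.13) and the third LOC396098 probe at 0.53 log2 (SE 0.21). None of these probes passed in limma, as given below. In 8 of 9 genes the SD was larger among the female-labelled libraries.

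Without the libraries labelled female 3 and male 3, no member passed either. All 9 were again higher among the male-labelled, against 45.7% of all features, with a median difference of 0.59 log2. LOC396098 then differed by 0.73 (SE 0.21), CD79B by 0.55 (SE 0.19), POU2AF1 by 0.62 (SE 0.23) and TNFRSF13B by 1.26 log2 (SE 0.27). The limma adjusted p ranged from 0.141 for TNFRSF13B to 0.519 for EBF1, and 0.288% of all features passed. At an unadjusted p under 0.05 there were 3 of 9 members, LOC396098, CD79B and TNFRSF13B, against 21.6% of all features. In 7 of 9 both male-labelled libraries left lay above both female-labelled ones, against 25.2% of all features.

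With each of the 35134 kept probes as a feature, the male-labelled mean exceeded the female-labelled one on all 28 member probes, against 48.4% of all probes. The differences ran from 0.08 log2 on a BCL11A probe to 0.72 on a TNFRSF13B probe. None of the 28 passed in limma, with a lowest adjusted p of 0.942. At an unadjusted p under 0.05 there were 2, an EBF1 and a LOC396098 probe, against 3.91% of all probes. With female 3 and male 3 left out, all 28 were again higher among the male-labelled, against 47.0% of all probes, from 0.06 to 1.26 log2. None passed in limma (lowest adjusted p = 0.139), against 0.299% of all probes, and 9 had an unadjusted p under 0.05, against 21.7%.

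**Figure D4:**
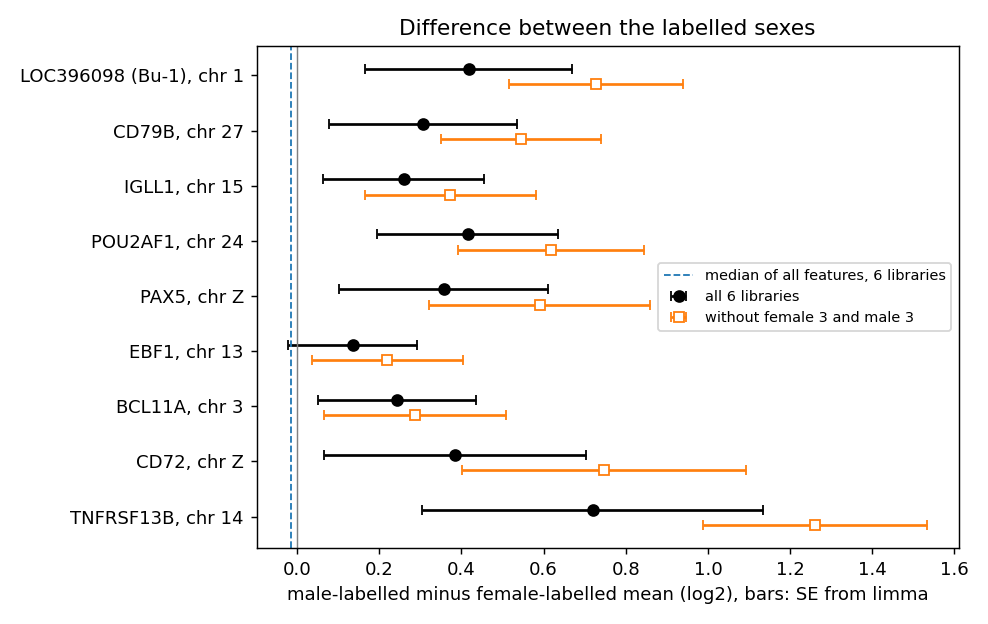
The x axis gives the male-labelled minus female-labelled mean (log2) with limma's standard error as bars, for each of the 9 genes on the y axis. Filled circles use all 6 libraries and open squares leave out those labelled female 3 and male 3; all 9 genes lie above 0, and the dashed line marks the median of all features at -0.01.

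Other genes of B cell biology, taken as lists, were split between the directions. Of 32 listed genes of receptor signalling and B cell partners 15 were measured. Of these 15, 7 had the higher mean among male-labelled libraries, against 47.4% of all features, with a median difference of -0.0018 log2. None passed in limma (lowest adjusted p = 0.948) and 1 had an unadjusted p under 0.05, against 3.81% of all features. With female 3 and male 3 left out, the median was -0.0032, none passed (lowest limma adjusted p = 0.124), and 3 had an unadjusted p under 0.05, against 21.6% of all features. The gene counted with all 6 libraries was RASGRP3, a Ras activator downstream of the antigen receptor, which read -0.32, -0.04 and 0.36 in the female-labelled libraries and 0.67, 0.64 and 0.36 in the male-labelled ones. SYK, the Z-linked kinase that docks on the CD79 chains, ran the other way, at 1.88, 1.90 and 0.94 in the female-labelled and 1.47, 1.18 and 0.98 in the male-labelled libraries. The difference of SYK was -0.36 log2, and those of VAV3 and PIK3CD were -0.27 and -0.22. Without the pair RASGRP3 differed by 0.83, SYK by -0.57, VAV3 by -0.40 and PIK3CD by -0.33 log2. TNFSF13B, the ligand BAFF, differed by -0.0018 log2, and by -0.08 without the pair. SYK, VAV3 and PIK3CD also act in other leukocytes.

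Of 21 listed transcription factors of the B lineage 15 were measured. None passed in limma, 7 of 15 were higher in the male-labelled mean, and the median was -0.03 log2. RUNX1 was at -0.29 (SE 0.12), BCL6 at 0.27 (SE 0.13), LEF1 at -0.30 (SE 0.16) and MYB at -0.37 log2 (SE 0.23). Without the pair the median was -0.14 log2, 6 of 15 were higher and none passed (lowest limma adjusted p = 0.212), with RUNX1 at -0.28, BCL6 at 0.33, LEF1 at -0.33 and MYB at -0.52. TCF3, the E protein that acts beside EBF1, read 1.27, 1.09 and 0.81 in the female-labelled libraries and 0.87, 1.103 and 0.98 in the male-labelled ones. It was highest in the library labelled female 1, as were 5 of the 15 factors, against 23.4% of all features. Of the 15, 1 was lowest there, against 19.9% of all features. The Pearson r with the mean deviation of the 9 genes was positive for 7 of the 15. Of the 4 plasma cell markers measured 2 were higher in the male-labelled mean. None of the 4 passed in limma, with or without the pair, and their median difference was -0.0035 log2 with all libraries and 0.0091 without the pair.

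Markers of other leukocytes varied over the same libraries. The 4 cytotoxic cell markers, CCL5, GZMA, GNLY and FASLG, had a mean deviation of -1.44 log2 in the library labelled female 1 and 2.02 in that labelled male 2, the libraries where the mean of the 9 genes was lowest and highest. The log2 of their summed level was 3.94 to 5.20 in the female-labelled and 4.77 to 7.33 in the male-labelled libraries. The 12 T cell markers stayed between -0.13 and 0.14 in mean deviation, with a summed level of 8.57 to 8.86 in the female-labelled and 8.65 to 8.85 in the male-labelled libraries. Single T cell markers differed in direction. Their Pearson r with the mean deviation of the 9 genes ran from -0.64 to 0.89 and was positive for 7 of 12. The 10 heterophil markers ranged from -1.97 in the library labelled male 2 to 1.75 in that labelled female 3 and were at 0.0015 in that labelled female 1. Their summed level was 4.06 to 7.61 in the female-labelled and 3.25 to 7.23 in the male-labelled libraries. The 9 erythroid markers were at 0.28 in the library labelled female 1 and -0.78 in that labelled male 2, with a summed level of 9.72 to 10.03 in the female-labelled and 9.06 to 10.17 in the male-labelled libraries. The 7 thrombocyte markers stayed between -0.22 and 0.13 and the 9 monocyte markers between -0.37 and 0.29. Single monocyte markers also differed in direction, with r from -0.88 to 0.81 against the 9 genes, positive for 5 of 9. Well above background on all 6 arrays were 4 of 4 cytotoxic, 12 of 12 T cell, 10 of 10 heterophil, 7 of 7 thrombocyte, 8 of 9 monocyte and 7 of 9 erythroid markers. None of these markers passed between the labelled sexes in limma (lowest adjusted p = 0.948), and at an unadjusted p under 0.05 there were 1 of 4 cytotoxic, 1 of 9 monocyte and 2 of 9 erythroid markers, against 3.81% of all features. The 2 erythroid markers went in opposite directions, by 1.77 and -1.69 log2, and the one that was higher was well above background on only 4 arrays. With female 3 and male 3 left out, none of the markers passed either (lowest limma adjusted p = 0.104). At an unadjusted p under 0.05 there were then 2 of 4 cytotoxic, 6 of 9 monocyte, 2 of 10 heterophil and 3 of 9 erythroid markers, against 21.6% of all features. The median difference of the cytotoxic markers was 1.55 log2 with all libraries and 2.33 without the pair, and that of the erythroid markers -0.21 and -0.75. The part of these cell types in the levels of the 9 genes was not tested.

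**Figure D5:**
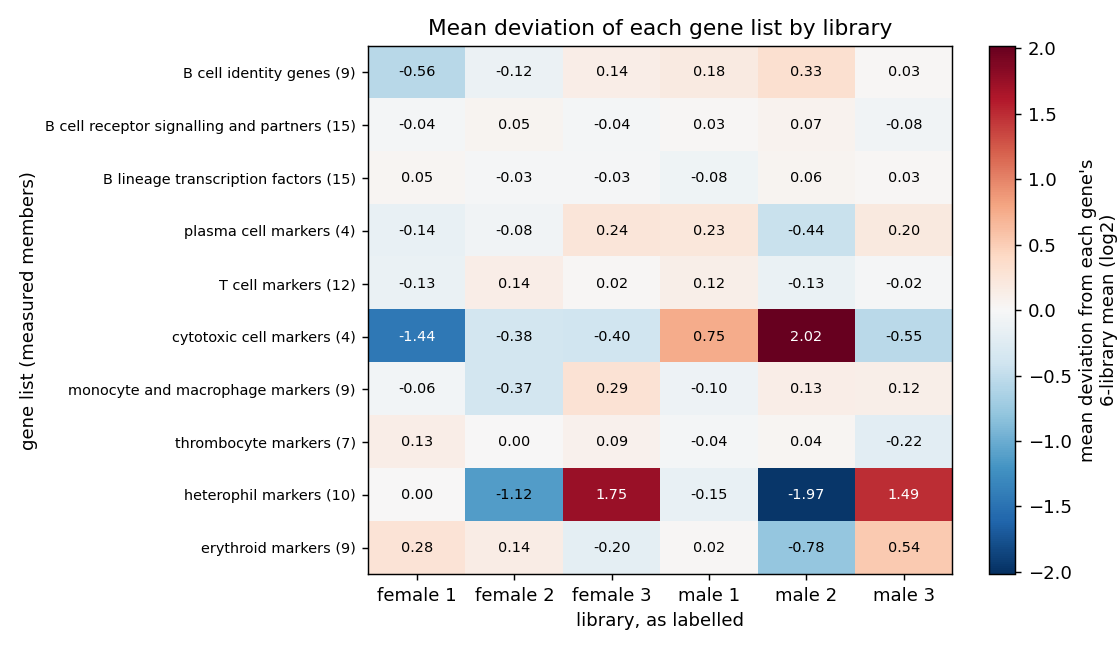
The x axis gives the libraries as labelled and the y axis the gene lists with the number of measured members; each cell gives the mean deviation of the list from each gene's 6-library mean (log2). The B cell row runs from -0.56 to 0.33, the T cell row from -0.13 to 0.14 and the heterophil row from -1.97 to 1.75.

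The genes whose pattern was most like the mean deviation of the 9 were sought among 1514 other named genes that were well above background on all 6 arrays with an SD of at least 0.3 log2. Over the 6 libraries the Pearson r was 0.99 for RFC2, a subunit of the clamp loader of DNA replication, and for ADSL, an enzyme of purine synthesis. It was 0.99 for TMEM175 and SEMA4D and 0.98 for HABP4 and MRPL3. TMEM175, SEMA4D and HABP4 lie on Z, as do 8.79% of the candidates. The mean deviation of the 9 includes the Z-linked PAX5 and CD72, so its likeness to Z genes is not independent of them. It also includes the dim TNFRSF13B, at 1.07 in the library labelled male 1 and -0.53 in that labelled male 3. Of the 1514, 48 (3.17%) exceeded 0.9, and the median was 0.02. The most opposite were FADS2 (-0.97), ANKRD27 (-0.96) and AGMAT (-0.96). Without the library labelled female 1 the r of ADSL was 1.00, that of RFC2 0.97 and that of AGMAT -0.84.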

How the data were processed

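Each scanner table held the spot intensity as deposited by the authors, read with Agilent Feature Extraction 11.5.1.1 on a grid of the build galGal3, per the file headers. That signal had been corrected for background and for spatial trend on each array. The deposited matrix held the same intensity times 1 factor per array, between 2.10 and 2.31, and the sources used here do not name the target of that scaling. The deposited flags and other per-spot values marked spots well above background, saturated spots (none) and outliers (3 to 12 per array, left out).

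From these, log2 of the processed signal was taken, the 75th percentile of an array's non-control spots was subtracted, and replicate spots were averaged. The filter kept probes flagged well above background in 3 or more of the 6 arrays, as 35141 of 43603 were, and 7 of these had a missing value. A gene was represented by its brightest kept probe; an unnamed probe was treated as its own feature. Names and chromosomes came from a RefSeq gene table of GRCg7b, joined on unversioned accessions. As the array was designed on another build, coordinates are left out. It named 11935 probes. Lists were matched by symbol alone. The 9 genes, the lists and the tests were chosen with earlier results of these data known. Named genes were the 9 members, up to 4 per B cell list by smallest p, the 4 cytotoxic markers measured, and HINTW. The 6 most and 3 least like genes by Pearson r were also named. Outside these rules, TCF3 and TNFSF13B were added after their values were seen, and CD72L1 was added as a neighbour of CD72.

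Male-labelled minus female-labelled differences were tested on 29509 features in R 4.3.3 with limma 3.58.1 (two-sided moderated test, lmFit then eBayes). Tested on simulated data for this comparison of 29509 features, with 50 changed at each size, the fit recovered 0% of features changed 1.5-fold, 32% changed 2-fold, 50% changed 4-fold and 86% changed 8-fold. Alternatives covered background correction (on the median spot signal, offset 50), scaling, filters, probe summary, moderation, left-out libraries and a block on the replicate number. A planned search for promoter motifs was not run. Figures were made with Python 3.11.15 and matplotlib 3.10.9.

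Deviations of same-numbered samples from their group means correlated at 0.01, -0.11 and -0.21, so the numbers were not taken as pairs.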

Additional observations from a re-analysis of the deposited data

How the results depend on the processing

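Of 17 alternatives chosen with earlier results known, and 1 chosen after seeing the data (leaving out PAX5 and CD72), none brought any of the 9 genes or 28 probes past the limma threshold, and none turned the direction of a member's difference. The median difference of the members was 0.31 to 0.40 log2 under the other background corrections, scalings, filters, probe summary and moderation, 0.12 to 0.56 when 1 library was left out, and 0.59 with female 3 and male 3 both left out. Under the 8 other processing settings all 9 genes stayed lowest in the library labelled female 1. The count of all features passing in limma was 0 and became 1 after quantile normalization, 0 to 2 when 1 library was left out (2 without male 1), and 85 with female 3 and male 3 both left out. The cause of these changes was not tested. With the replicate number as a block 0 features and 0 members passed, and the block left the median difference at 0.36 log2. At 3 against 3, 0% of simulated 1.5-fold and 32% of 2-fold changes were recovered. PAX5 and TNFRSF13B rest on dim probes.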
